A study of Mus musculus with 6 samples.

Results

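The sites at which the neuronal splicing regulator PTBP2 was crosslinked to nuclear RNA in wild-type mouse cortex were set against a background library, made from cortex of the same genotype with an antibody to a tag that this cortex does not carry. The comparison used 2 of the 6 CLIP libraries of the series (crosslinking and immunoprecipitation with sequencing), PTBP2 CLIP in wild type and FLAG CLIP in wild type replicate 1. They were chosen because both came from wild-type (WT) cerebral cortex of BL6/129Sv mice on postnatal day 1 and both held reads of the sequencing runs XA041 and XB028. Neither library carried a transgene or a recombinase; PTBP2 was pulled down with a polyclonal antibody at its natural level, and the FLAG antibody had no FLAG-tagged protein to bind. Whether tissue of several animals was pooled is not stated, and there was 1 library per antibody, so no significance test between them was possible and the intervals given below cover counting error only. The deposited lists were merged into 99205 union sites on chromosomes 1 to 19 and X, of which 27421 held PTBP2 and 73434 held FLAG.

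PTBP2 is a paralogue of the polypyrimidine tract binding protein PTBP1. Both bind stretches of RNA rich in C and U, mostly in introns near alternative exons, and commonly repress the splicing of these exons. PTBP1 is present in neural progenitors and falls as neurons form, while PTBP2 rises in young neurons and falls again as synapses mature, so that the cortex of a newborn mouse is a tissue in which PTBP2 is active. In CLIP, ultraviolet light joins protein to RNA, the complex is purified, and the copied RNA fragments are mapped; fragments that pile up at a place mark RNA that was close to the protein.

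Each line of a list gives the place of 1 read. A distinct interval is a unique combination of chromosome, strand, start and end, and a union site is a stretch of touching or overlapping distinct intervals of both libraries on 1 strand. The PTBP2 library held 155285 distinct intervals, 47127 in run XA041 and 108158 in XB028. The FLAG library held 88266, 83848 in XA041 and only 4418 in XB028, so the runs were filled in opposite proportions. Each interval carried a single read name, but a read could be listed on several lines, on average 1.20 lines per interval for PTBP2 and 4.26 for FLAG. Shares below are distinct intervals at a site per 10000 distinct intervals of the library.

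Counted as distinct intervals, PTBP2 was stacked and FLAG was scattered. Of the sites with PTBP2, 23.9% held a single PTBP2 interval, against 85.8% of the sites with FLAG for FLAG. Sites with 10 to 49 intervals numbered 2852 for PTBP2 and 36 for FLAG, and sites with 50 or more numbered 215 and 3. Sites with 8 or more intervals held 55.7% of all PTBP2 intervals and 1.28% of all FLAG intervals, as the plot of site sizes shows. This contrast rests on the collapsing of lines. A site with a single FLAG interval had a median of 4 lines, and 95.3% of such sites had 2 or more, against a median of 2 lines and 50.6% for PTBP2. Counted by lines, 4212 sites held 10 or more of FLAG and 3718 held 10 or more of PTBP2, and 114 held 10 or more of both. FLAG lines at a site were thus more often repeats of the same interval, while PTBP2 lines had many different starts and ends. This differed by run: lines per interval were 4.43 in XA041 and 1.18 in XB028 for FLAG, and 1.41 and 1.11 for PTBP2. The libraries thus differed mainly in XA041, the run that held most FLAG intervals and fewer of PTBP2. Whether the repeats are copies made in amplification was not tested. The libraries met at few sites in either unit: 1650 held both, which is 6.02% of the sites with PTBP2 and 2.25% of the sites with FLAG. Of the PTBP2 intervals, 128650 of 155285 lay at sites where FLAG was listed at 0, a share of 82.8% (exact Clopper-Pearson 95% interval 82.7 to 83.0). For the PTBP2 intervals of each run, set against FLAG of both runs, this was 83.9% in XA041 and 82.4% in XB028. With both libraries restricted to 1 run, it was 83.96% in XA041 and 94.04% in XB028, where FLAG held few intervals. By their names the lists hold what passed a false discovery rate, though the header of both lists compared here speaks of combined data instead. Reads left out of a list are unknown, so where FLAG was listed at 0 the text states that and gives no fold.

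**Figure D1:**
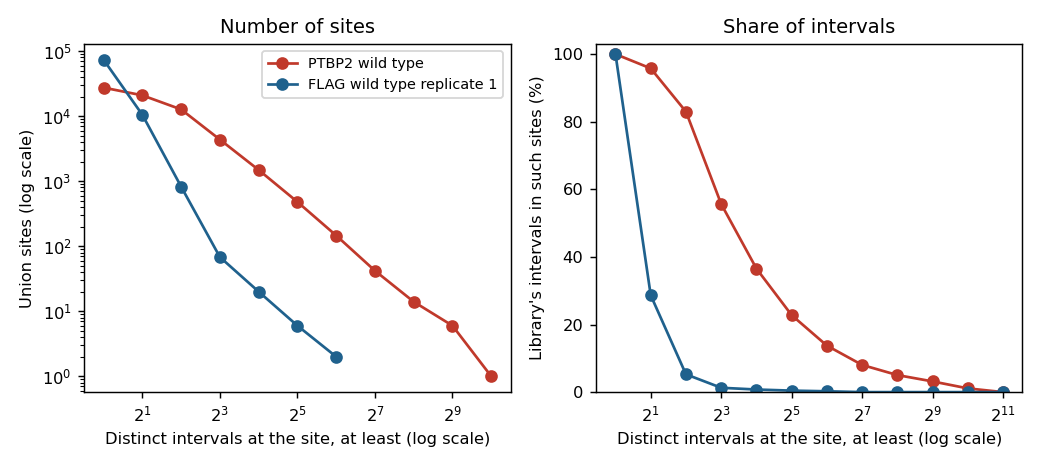
Union sites with at least the number of distinct intervals on the x axis (log scale), for PTBP2 wild type (red) and FLAG wild type replicate 1 (blue): left, number of sites (log scale); right, percent of the library's intervals that lie in such sites. FLAG starts higher, at 73434 sites with 1 or more intervals against 27421, and falls below PTBP2 from 2 intervals on.

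A site was called above background when it held 10 or more PTBP2 intervals, when its PTBP2 share was at least 4 times its FLAG share with a pseudocount of 0.5, and when the ratio was at least 2 in each run. Of 3067 sites with 10 or more PTBP2 intervals, 418 met all of this, which is 13.6% of those tested. The pooled ratio alone was met by 2931 of the 3067 (95.6%). The demand on run XB028 made most of the difference: with FLAG listed at 0 there, a site needed 24 PTBP2 intervals in that run to pass, and 2472 sites failed for that run only. With each PTBP2 run set against the FLAG library of both runs, an alternative added after the values were seen, 2889 sites passed (94.2%). In run XA041 on its own, where both libraries were deep, 459 of 464 sites with 10 or more PTBP2 intervals passed (98.9%); 306 of these were among the 418, which is 73.2% of the 418 and 66.7% of the 459. The 418 are therefore the deeply covered end of a larger set, and since the sites were entered through their PTBP2 count, a high PTBP2 share among them was built in. Entered through FLAG instead, 39 sites held 10 or more FLAG intervals. Of these, 5 had a PTBP2 share at least 4 times the FLAG share (12.8%), and 18 had a FLAG share at least 4 times the PTBP2 share (46.2%). At the ratio threshold, the nearest sites outside were tied, among them sites with 17 PTBP2 and 2 FLAG intervals, with 10 and 1, and with 801 and 114. The nearest inside held 130 and 18.

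**Figure D2:**
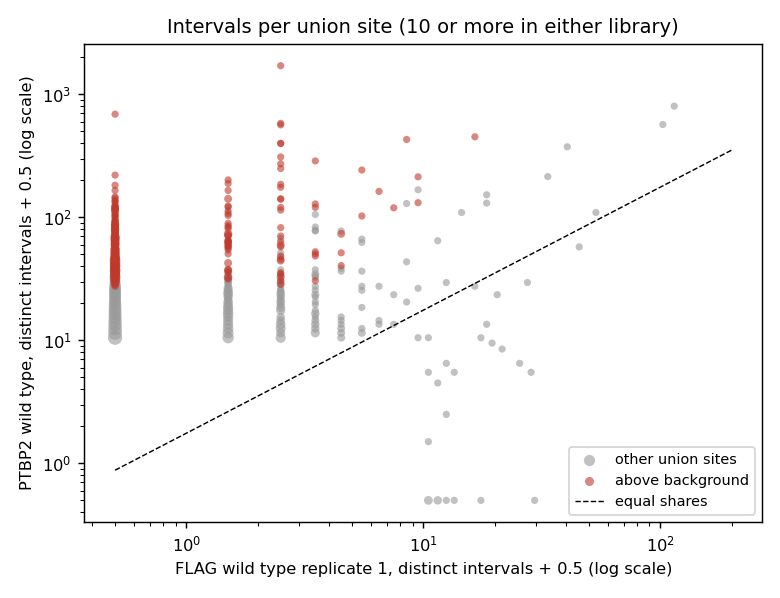
Distinct PTBP2 intervals (y axis) against distinct FLAG intervals (x axis) at each union site with 10 or more in either library; 0.5 was added and both axes are log scales. Red points are the 418 sites above background, grey points the others, larger points several sites with the same values, and the dashed line marks equal shares. Most points with 10 or more PTBP2 intervals stand at the left edge, where FLAG was listed at 0 (2613 of 3067 sites).

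The 418 sites held 30299 PTBP2 intervals, 19.5% of that library (19.3 to 19.7), in 118.77 kb of sequence. The FLAG library held 204 of its intervals there, 0.231% (0.201 to 0.265). By run this was 0.231% in XA041 and 0.226% in XB028 for FLAG, and 17.8% and 20.3% for PTBP2. The rule asked for a low FLAG share, pooled and in each run, so these FLAG values follow from it; over all 3067 sites with 10 or more PTBP2 intervals, FLAG held 1.60% and PTBP2 48.7%. FLAG was listed at 0 at 327 of the 418 sites, and at most 16 FLAG intervals lay at any of them. At the 91 sites with FLAG, the PTBP2 share was between 5.68-fold and 485-fold higher, with a median of 30.7-fold. The sites were 84 to 1517 bases wide with a median of 230.5, against a median of 104 for the other sites with 10 or more PTBP2 intervals and 39 for sites with FLAG only. They lay on both strands, 200 on plus and 218 on minus. In all 418 both PTBP2 run shares were above both FLAG run shares, which also held at 96.4% of the 3067 sites tested. Between the PTBP2 runs, the log2 ratio of shares (XB028 over XA041) had a median of 0.23 and an SD of 0.50, and 380 of the 418 sites were within 2-fold. With FLAG listed at 0 in a run, the demand on it needed 24 PTBP2 intervals in XB028 but 1 in XA041. The selection of the 418 sites therefore shapes this median and spread. The runs are technical parts of 1 library, so this spread does not include differences between animals.

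The strongest site lay on the minus strand of chromosome X, from 100661950 to 100663367 in mm9, and will be called site 1; the 25 sites above background with most PTBP2 intervals are numbered in this way. It held 494 PTBP2 intervals in run XA041 and 1214 in XB028, against 1 FLAG interval in each run. As shares this was 105 and 112 per 10000 for PTBP2 and 0.119 and 2.26 for FLAG, so both PTBP2 shares were above both FLAG shares. The pooled share was 485-fold higher (134 to 4012), but within XB028 it was 49.6-fold (8.88 to 1960). Pooled folds here and below mostly set PTBP2 of XB028 against FLAG of XA041, and their intervals do not cover the difference between the runs. This single site held 1.10% of all PTBP2 intervals. Its coverage was a row of separate peaks along 1418 bases rather than a single summit, and no upstream end (the first base of a read in the direction of transcription, where reverse transcriptase often stops at the crosslink) was used by more than 11 of the 1708 intervals.

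Site 2, on the plus strand of chromosome 2 from 158208904 to 158209353, was the deepest site at which FLAG was listed at 0 in both runs. PTBP2 held 222 intervals in XA041 and 467 in XB028, or 47.1 and 43.2 per 10000. Its 689 intervals lay in 450 bases, a density of 153 per 100 bases and the highest of the 418, whose median was 21.8. In contrast to site 1 its coverage rose to 1 main summit with shoulders.

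Site 3, on the plus strand of chromosome 10 from 69072372 to 69072997, held 164 and 416 PTBP2 intervals in XA041 and XB028, against 2 and 0 of FLAG. The PTBP2 shares of 34.8 and 38.5 per 10000 stood above FLAG shares of 0.239 and 0, a pooled share 165-fold higher (45.4 to 1364). Its coverage stayed raised along the middle of the site, with a peak towards either side. Sites 2 and 3 were 450 and 626 bases wide, while sites 4 to 8 were between 1158 and 1517.

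**Figure D3:**
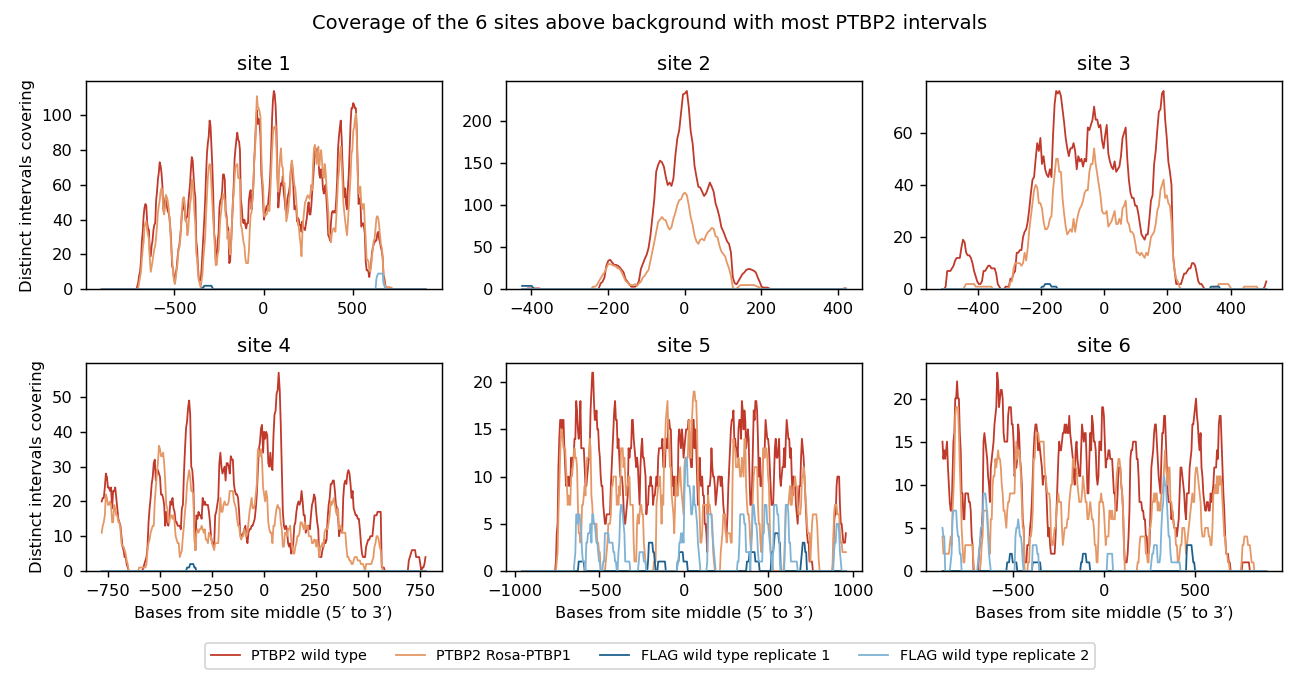
Distinct intervals covering each base (y axis) by distance in bases from the middle of the site, read 5′ to 3′ (x axis), for the 6 sites above background with most PTBP2 intervals; lines are PTBP2 wild type (red), PTBP2 Rosa-PTBP1 (orange), and FLAG wild type replicates 1 (dark blue) and 2 (light blue). PTBP2 wild type and PTBP2 Rosa-PTBP1 rise and fall at the same places in sites 1 to 3, while FLAG replicate 1 stays low in all 6 and FLAG replicate 2 is visible in sites 5 and 6.

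On the plus strand of chromosome 18, 6 sites above background lay between 37186452 and 37207465, a stretch of 21.0 kb with 1629 PTBP2 and 10 FLAG intervals. The first 3 were adjoining. Site 10 held 71 PTBP2 intervals in XA041 and 216 in XB028 against 2 and 1 of FLAG, a pooled share 54.4-fold higher (18.4 to 265) and 8.82-fold (1.57 to 350.1) within XB028. Site 7 held 120 and 279 against 2 and 0, 113-fold higher (31.2 to 940). Site 4, the largest, held 165 and 399 against 1 and 1, 160-fold higher pooled (44.2 to 1327) and 16.3-fold (2.91 to 645) within XB028. In each of the 3, both PTBP2 shares exceeded both FLAG shares. After a gap with 1 smaller site of 35 intervals came sites 16 and 25, with 57 and 144 PTBP2 intervals and with 41 and 102 in XA041 and XB028. FLAG held 1 interval at site 16 and was listed at 0 at site 25.

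The stretch with most sites above background lay on the minus strand of chromosome 2 from 6776989 to 6786038, where 11 sites in 9.05 kb held 1544 PTBP2 and 48 FLAG intervals. It was also the stretch with most FLAG intervals among the groups of sites above background. Site 5 held 138 PTBP2 intervals in XA041 and 313 in XB028 against 14 and 2 of FLAG, and its shares of 29.3 and 28.9 per 10000 stood above 1.67 and 4.53. The pooled share was 16.0-fold higher (9.76 to 28.3); of the numbered sites with FLAG, only sites 15 and 23 had a lower fold, 13.5 and 15.3. Site 6 held 109 and 320 against 8 and 0, 30.5-fold higher (15.3 to 71.1). The other 9 sites of the stretch held between 30 and 128 PTBP2 intervals each and between 0 and 7 of FLAG. Grouping sites above background on 1 strand with gaps of up to 10 kb gave 289 groups, of which 218 were single sites and 31 held 3 or more; 200 of the 418 sites lay in groups of 2 or more.

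Other groups were compact. On the minus strand of chromosome 8, 6 sites between 17184821 and 17187973 held 440 PTBP2 intervals and 1 of FLAG. On chromosome 3, 5 sites on the minus strand between 25534997 and 25538020 held 399 PTBP2 and 3 FLAG intervals, and 4 on the plus strand between 28176447 and 28180050 held 671 and 3. The largest of these 4 was site 8, with 95 and 303 PTBP2 intervals in XA041 and XB028 against 2 and 0 of FLAG, 113-fold higher (31.1 to 937). The minus strand of chromosome 14 held 4 groups from 39997040 to 40202250. They held 15 sites above background with 33 to 165 PTBP2 intervals each, and no site there held more than 3 FLAG intervals.

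The remaining numbered sites held from 143 to 309 PTBP2 intervals. Site 9, on chromosome 15 (plus, 30263065 to 30264041), held 80 and 229 in XA041 and XB028 against 2 and 0 of FLAG. Site 11, on chromosome 12 (plus, 90773701 to 90774204), held 82 and 190 against 2 and 0. Site 12, on chromosome 4 (minus, 77826140 to 77826753), held 61 and 188 against 2 and 0. These 3 had pooled shares 87.8-fold, 77.3-fold and 70.8-fold higher, and at each the lower PTBP2 run share was at least 12.9 per 10000 where the higher FLAG run share was 0.239. Site 14, on chromosome 2 (minus, 52514547 to 52515536), held 58 and 162 with FLAG listed at 0. Site 19, on chromosome 16 (plus, 6262562 to 6263069), held 43 and 139 with FLAG listed at 0, and further along that strand site 13 (6618236 to 6618662) held 63 and 179 against 5 and 0 of FLAG. Across the 25 sites FLAG was listed at 0 at 6 and reached at most 16 intervals, and no PTBP2 run share overlapped a FLAG run share, as the plot of the numbered sites shows. The rule asked for a higher PTBP2 share in each run, and both PTBP2 run shares were above both FLAG run shares at 96.4% of the 3067 sites tested. Within XB028 FLAG held an interval at 6 of the 25, sites 1, 4, 5, 10, 20 and 23, and the folds there were lower than the pooled ones; at sites 20 and 23 they were 5.07-fold (0.892 to 202) and 4.33-fold (0.761 to 173). Of the 25 sites with most intervals in XA041 and the 25 with most in XB028, whether above background or not, 21 were the same.

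**Figure D4:**
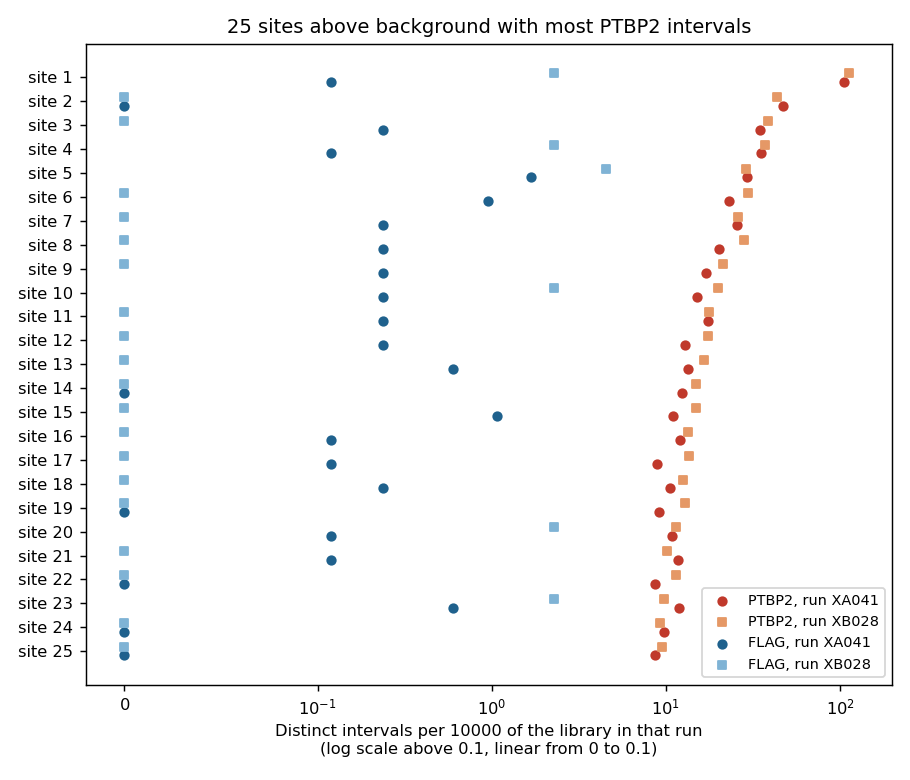
Distinct intervals per 10000 of the library in that run (x axis, log scale above 0.1 and linear from 0 to 0.1) for the 25 sites above background with most PTBP2 intervals, 1 row per site; red circles and orange squares are PTBP2 in XA041 and XB028, dark blue circles and light blue squares are FLAG in the same runs. PTBP2 values lie between 8.70 and 112 in every row, and no FLAG value is above 4.53.

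Highest ratios were a matter of FLAG being listed at 0. Of the 10 highest pseudocount ratios among sites above background with 100 or more PTBP2 intervals, 9 had FLAG at 0, and 7 are among the numbered sites. The other 3 lay on chromosome 8, plus strand, from 68606440 to 68607050 (137 PTBP2 intervals), on chromosome 9, minus strand, from 49523663 to 49524103 (135), and on chromosome 8, minus strand, from 17187190 to 17187973 (131), the last within the chromosome 8 group above. In both runs their PTBP2 shares were between 7.43 and 10.8 per 10000.

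Of the 25 sites with most PTBP2 intervals before any ratio was asked, 20 were above background. Among the other 5, 4 lay between 5797351 and 5801008 on the minus strand of chromosome 19, among them the 2 sites with most FLAG intervals of all. The site from 5799247 to 5799873 held 232 PTBP2 intervals in XA041 and 569 in XB028, against 91 and 23 of FLAG. Its pooled PTBP2 share was 3.99-fold higher (3.28 to 4.90), but the fold was 4.54 in XA041 and 1.01 in XB028. The site from 5797351 to 5797825 held 169 and 399 against 76 and 26, 3.17-fold higher (2.56 to 3.95), with 3.96 in XA041 and 0.627 in XB028. The sites from 5800753 to 5801008 and from 5799909 to 5800036 were 5.31-fold and 3.69-fold higher, but 0.878-fold and 0.980-fold in XB028. FLAG in XB028 rests on 6 to 26 intervals at these 4 sites. In the same stretch, 3 smaller sites were above background, among them site 15 (5798238 to 5798389) with 52 and 161 PTBP2 intervals against 9 and 0 of FLAG. The fifth lay on chromosome 3, minus strand, from 80494645 to 80494896, with 167 PTBP2 intervals against 9 of FLAG; it was 23.1-fold higher in XA041 and 0.939-fold in XB028, and was singled out after its values were seen.

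The FLAG library had its own sites. Apart from the chromosome 19 stretch, the site with most FLAG intervals lay on chromosome 7, minus strand, from 118219570 to 118219705, with 46 in XA041 and 7 in XB028 against 33 and 76 of PTBP2. The pooled shares of 6.005 for FLAG and 7.02 for PTBP2 per 10000 did not differ beyond counting error (PTBP2 over FLAG 1.17-fold, 0.834 to 1.66), and the ratio was 1.28 (0.791 to 2.04) in XA041 and 0.443 (0.205 to 1.14) in XB028. The next, on chromosome 3, minus strand, from 68889142 to 68889348, held 33 and 12 of FLAG against 11 and 46 of PTBP2, a pooled ratio of 0.720 (0.479 to 1.09). Within both runs FLAG had the higher share: the ratio was 0.593 (0.270 to 1.20) in XA041 and 0.157 (0.0816 to 0.325) in XB028. Other FLAG sites were empty of PTBP2. On chromosome 16, plus strand, from 23110885 to 23111008, FLAG held 21 and 8 intervals and PTBP2 was listed at 0. It was the first of the 10 sites with the lowest ratio among those with 10 or more FLAG intervals. These were narrow, from 49 to 136 bases, with 10 to 29 FLAG intervals, and PTBP2 was listed at 0 at all 10. At chromosome 9, plus strand, from 15118284 to 15118377, FLAG held 28 intervals and PTBP2 5, a FLAG share 9.85-fold higher (3.76 to 32.7).

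Over wider stretches FLAG was seldom listed at 0. Windows of 100 kb were counted per strand in place of genes, since the sites were not assigned to genes. Of 1213 windows with 20 or more PTBP2 intervals, 160 had a PTBP2 share at least 4 times the FLAG share and at least 2 times in each run, 13.2% of those tested; without the demand on the runs it was 198 (16.3%). The median log2 ratio over the windows was 0.81, and in 293 the FLAG share was the higher, although they were entered through PTBP2. FLAG was listed at 0 in 4 of the 1213 windows and at 2613 of the 3067 sites, which are far narrower. Across the 1213 windows, whose mappability both libraries share, the Spearman correlation of PTBP2 and FLAG intervals was 0.55. FLAG thus had intervals in nearly all windows rich in PTBP2, mostly outside the PTBP2 sites with 10 or more intervals.

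The 25 windows with most PTBP2 intervals in sites above background were described in the same way. On chromosome 2, minus strand, from 6.7 to 6.8 Mb, PTBP2 held 983 intervals in XA041 and 2494 in XB028, and FLAG 243 and 25. They fell into 192 PTBP2 sites and 146 FLAG sites, so that the number of sites was similar while intervals per site were 18.1 and 1.84; the PTBP2 share of intervals was 7.37-fold higher (6.51 to 8.38). On chromosome 18, plus strand, from 37.1 to 37.2 Mb, PTBP2 held 480 and 1215 intervals and FLAG 23 and 2, 38.5-fold higher (26.0 to 59.7), the highest of the 25. On chromosome X, minus strand, from 100.6 to 100.7 Mb, site 1 held 99.5% of the PTBP2 intervals of its window, and FLAG, with 37 intervals, was mostly elsewhere in it. On chromosome 9, minus strand, from 112 to 112.1 Mb, FLAG held more sites than PTBP2, 65 against 42, but 87 intervals against 761. On chromosome 14, minus strand, from 40.1 to 40.2 Mb, only 27.9% of 1263 PTBP2 intervals lay in the 5 sites above background, of 113 sites with PTBP2 in that window. Over the 25 windows PTBP2 held 8.96 to 572 intervals per site (median 15.6) and FLAG 1.12 to 22.1 (median 1.34), FLAG held more sites than PTBP2 in 8, and 92.9% of the FLAG intervals lay outside the sites above background. The rule asked for a low FLAG share at these sites, so that FLAG lay mostly outside them was built in. The windows were chosen by their PTBP2 intervals in such sites, which favours many PTBP2 intervals per site. The 22.1 belongs to chromosome 19, minus strand, from 5.7 to 5.8 Mb, where 354 FLAG intervals fell into 16 sites; it was the single window of the 25 that was not above background, at 3.84-fold (3.43 to 4.30).

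Both libraries kept to 1 strand. In the 253 windows that held a site above background, none held such sites on both strands. The opposite strand of these windows held 27 PTBP2 intervals against 71773 on the strand of the site, 0.0376% (0.0248 to 0.0547). For FLAG it was 47 against 9507, 0.492% (0.362 to 0.654). Of the windows with 20 or more FLAG intervals, the 10 with the lowest ratio all had PTBP2 listed at 0. The first, on chromosome 1, minus strand, from 38.6 to 38.7 Mb, held 42 FLAG intervals at 33 sites, and the next, on chromosome 7, minus strand, from 85.5 to 85.6 Mb, held 31 at 27 sites. In 9 of the 10 FLAG was spread over 19 to 33 sites; the exception, on chromosome 9, plus strand, from 120 to 120.1 Mb, held 29 intervals at 6.

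Sites above background were found on all 20 chromosomes used, from 4 on X to 43 on chromosome 14. As a share of the sites tested per chromosome they ranged from 8.23% on chromosome 4 to 18.8% on chromosome 8, around the 13.6% of all. Chromosome 14 also stood out by intervals, with 7.74% of PTBP2 and 5.22% of FLAG, and chromosome 11 in the other direction, with 3.54% and 5.06%.

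The other 4 libraries, which the definition of the sites did not use, were then counted at the same places. These are PTBP2 CLIP and FLAG CLIP from Rosa-PTBP1; Emx1-cre cortex, in which a FLAG-PTBP1 transgene is expressed with a recombinase active in the dorsal forebrain, FLAG CLIP from such cortex with PTBP2 loxp/loxp alleles, and FLAG CLIP in wild type replicate 2. Chromosomes sparse in a library were left out for it: 4 to 9 in PTBP2 Rosa-PTBP1, 10 in FLAG Rosa-PTBP1, and 14 and 16 in FLAG wild type replicate 2. Sparse means a share of its intervals below 0.5 times the median of the other libraries. Such chromosomes were not empty throughout. On chromosome 9, minus strand, the site from 49523663 to 49524103 held 95 PTBP2 Rosa-PTBP1 intervals. Of the 308 sites above background that could be compared, 294 held at least 1 interval of PTBP2 Rosa-PTBP1, or 95.5% (92.5 to 97.5). For FLAG-PTBP1 it was 377 of 378 without and 414 of 418 with the loxP alleles. In the second background library, FLAG wild type replicate 2, it was 27 of 336, or 8.04% (5.36 to 11.5). That library held 26629 distinct intervals, fewer than the 74285, 351536 and 265915 of the others, so these shares are not matched for depth. Replicate 2 and both FLAG-PTBP1 libraries were of a further run, WA047, and PTBP2 Rosa-PTBP1 was of XA041 and XB028. Occupancy was lower at sites with less PTBP2. At the other sites with 10 or more PTBP2 intervals it was 66.4% in PTBP2 Rosa-PTBP1, 90.0% in FLAG Rosa-PTBP1 and 85.8% with the loxP alleles, and at sites with 1 to 9, which are most of the sites with PTBP2, it was 13.6%, 32.4% and 27.6%. In replicate 2 these classes stood at 4.92% and 1.34%. Sites with FLAG of replicate 1 and no PTBP2 were mostly single intervals and were occupied in 0.996%, 2.65% and 1.81% of cases in the same 3 libraries and in 0.365% in replicate 2. Of the sites with both FLAG and PTBP2, on the chromosomes filled in each library, 37.6%, 63.1% and 56.5% were occupied, and 8.44% in replicate 2. The classes differ in their number of intervals by definition. They also differ in width, with medians of 230.5 bases above background, 104 at the other sites with 10 or more PTBP2 intervals and 39 with FLAG only. An interval counted when it shared 1 or more bases with a site, so wide sites are more easily occupied. Occupancy of FLAG sites and of PTBP2 sites of equal depth or width was not compared.

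**Figure D5:**
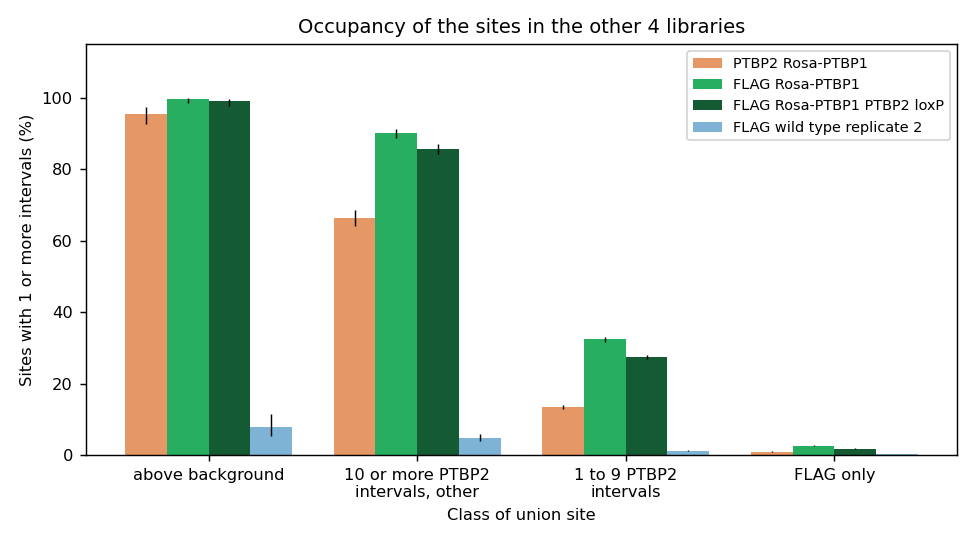
Percent of union sites with 1 or more distinct intervals (y axis) in each of the 4 libraries not used to define them, for 4 classes of site (x axis). Error bars are exact 95% binomial intervals, which cover counting error only, and chromosomes sparse in a library are left out. Sites above background are occupied in 95.5% to 99.7% of cases in the 3 libraries with a PTB protein and in 8.04% in FLAG wild type replicate 2.

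A ratio that shares no library with the comparison was taken between PTBP2 Rosa-PTBP1 and the second FLAG library of wild type, on the 12 chromosomes filled in both. The PTBP2 Rosa-PTBP1 share was at least 4 times the FLAG share at 186 of 226 sites above background (82.3%), at 748 of all 1611 sites with 10 or more PTBP2 wild-type intervals (46.4%) and at 1183 of 54254 union sites (2.18%). Both libraries were listed at 0 at 12, 469 and 50789 of these, so most of the union sites could not pass. With the pseudocount, a site with 5 or fewer PTBP2 Rosa-PTBP1 intervals could not pass either, even where FLAG was listed at 0. The shares of 82.3%, 46.4% and 2.18% therefore largely reflect how many sites held enough PTBP2 Rosa-PTBP1 intervals. Among sites with 5 or more PTBP2 Rosa-PTBP1 intervals the ratio was reached at 186 of 205 (90.7%), 748 of 898 (83.3%) and 1183 of 1536 (77.0%), much closer to each other. Sites with exactly 5 are among those that could not pass. These libraries were sequenced in different runs and came from cortex of different genotypes, so run, genotype and antibody cannot be told apart in this ratio.

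At site 1, PTBP2 Rosa-PTBP1 held 1595 intervals, FLAG Rosa-PTBP1 1482 and FLAG with loxP alleles 1697, against 9 in FLAG wild type replicate 2. The libraries differ in depth, and as shares these were 215, 42.2, 63.8 and 3.38 per 10000. At site 2 the intervals numbered 365, 445, 337 and 0, or 49.1, 12.7, 12.7 and 0 per 10000. At site 4 they numbered 358, 523, 552 and 0, or 48.2, 14.9, 20.8 and 0 per 10000. Site 3, on a chromosome sparse in FLAG Rosa-PTBP1, held 348, 0, 510 and 0, or 46.8, 0, 19.2 and 0 per 10000. Sites 1, 2 and 4 therefore had a higher share in each library with a PTB protein than in FLAG of wild type. The same held at site 3 except for FLAG Rosa-PTBP1. These sites were chosen for their many wild-type PTBP2 intervals. Replicate 2 was not low everywhere. On the chromosomes filled in it, its share exceeded that of wild-type PTBP2 at 12 of 336 sites above background. With the pseudocount, the PTBP2 share was at least 4 times its own at 314. Only 27 of the 336 held a replicate 2 interval. At the others this ratio was reached with any PTBP2 count that a site above background had, so 314 is not a measured excess. At site 15, in the chromosome 19 stretch, replicate 2 held 227 intervals or 85.2 per 10000, against 13.7 for PTBP2 and 1.02 for replicate 1. At site 5 it held 93, or 34.9 per 10000 against 29.0 for PTBP2. On chromosome 12, plus strand, the sites above background from 110783405 to 110783544 and from 110783134 to 110783249 held 50 and 34 PTBP2 intervals against 47 and 22 in replicate 2, shares of 3.22 and 2.19 against 17.6 and 8.26. Whether these places are above background therefore differs with the background library.

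Within sites, the place of the coverage was compared base by base. Over 274 sites above background with 10 or more intervals in both, coverage by wild-type PTBP2 and by PTBP2 Rosa-PTBP1 had a median Pearson correlation along the site of 0.71, with quartiles of 0.53 and 0.85, and the highest points lay within 20 bases at 160 (58.4%). For FLAG Rosa-PTBP1 the median was 0.72 over 371 sites and for FLAG with loxP alleles 0.69 over 403. Between the runs of the wild-type PTBP2 library it was 0.55 over 306 sites, with fewer intervals on each side. Neighbouring bases are covered by the same intervals and all libraries share the mappability of the site, so these values describe the profiles only. At site 2 the correlation with PTBP2 Rosa-PTBP1 was 0.98, at site 13 it was 0.95, at site 3 0.94 and at site 1 0.91, while at site 10, with its 1243 bases of low peaks, it was 0.22. Single bases were shared less often: sites had a median of 39 different upstream ends, the most used held a median of 5.30% of the intervals, and it was the same base in both runs at 11 of 306 sites and within 5 bases at 56.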

How the data were processed

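CLIP libraries were made from mouse cortex irradiated at 400 mJ/cm2; RNA was eluted from membrane between 80 and 110 kDa, per the labels' protocols. Reads were aligned with Bowtie to mm9, per the submitters' processing notes; the cluster caller and its settings were not given in the sources used here. The file names state a false discovery rate filter, while track lines read significant reads for the 3 lists of run WA047 and combined data for the 3 of XA041 and XB028, per the file headers. Each list deposited by the authors holds read intervals (chromosome, start, end, strand, read name) and no other value; why reads repeat on several lines is not stated. Members, lists and alternatives were chosen with earlier results of these data known.

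Lines were collapsed to distinct intervals, merged into union sites and counted by library and run (Python 3.11.15, pandas 2.3.3, scipy 1.17.1). Share ratios used a pseudocount of 0.5; folds in the text have none and carry exact conditional binomial 95% intervals. The code was tested on simulated data in which both libraries were split evenly between the runs, so the test did not cover a sparse FLAG run. Numbered sites are the 25 above background with most PTBP2 intervals; also named were the 10 highest ratios with 100 or more PTBP2 intervals, the 10 sites with most FLAG, the 10 lowest ratios with 10 or more FLAG intervals, and windows by the same kind of rule. The annotation at hand was of GRCm38, so sites were not assigned to genes, exons or introns, and gene lists, cortex markers and motifs were not analysed here. Positions are 1-based mm9.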

Additional observations from a re-analysis of the deposited data

How the results depend on the processing

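The count of 418 sites above background rests on the 4418 FLAG intervals of run XB028. It was 116 with a pseudocount of 1 and 110 in XB028 alone, and rose to 2931 with no demand on the runs, 2889 with each PTBP2 run set against pooled FLAG (added after the values were seen), 2127 with FLAG replicate 2 as background and 2879 with both wild-type FLAG libraries pooled; the last 2 had no FLAG counts by run to match, so each PTBP2 run was set against the whole FLAG library. Under the other 9 alternatives it was 377 to 543. It stayed at 418 with a minimum of 5 or of 20 PTBP2 intervals and at a ratio of 2, where the demand on the runs already decided the calls. Without X it was 377, although only 4 of the 418 sites lay there. The share of PTBP2 intervals in these sites, 19.51%, was 10.95% with a pseudocount of 1 and also in XB028 alone, 21.2% in XA041 alone, 20.12% by lines, 46.34% with no demand on the runs, 46.01% against pooled FLAG, 38.46% with replicate 2, 44.46% with both FLAG libraries, 17.18% when merging asked for 10 shared bases, 26.82% when intervals within 50 bases were merged, 19.22% at a ratio of 8 and 18.01% without X. The share at sites without FLAG, 82.85%, was 83.24% by lines, 83.96% in XA041, 94.04% in XB028, 92.82% with replicate 2, 80.84% with both FLAG libraries, 85.08% with 10 shared bases and 75.83% within 50 bases. Windows above background numbered 160, and 271 at a ratio of 2; under the other 7 alternatives they numbered 128 to 240. Of the 28 named sites above background, 26 kept a ratio of 4 in XB028 alone (not site 20, log2 1.76, nor site 23, 1.54), 23 with replicate 2, 26 with both FLAG libraries and 28 under each of the other 5 alternatives. In XB028 alone the ratio moved at 32 of all 47 named sites. Among the 28 named sites above background, the log2 ratio changed sign at site 5 with replicate 2 (-0.27). It also did at site 15, with replicate 2 (-2.63) and with both FLAG libraries (-0.58). Several of the other named sites changed sign too. On chromosome 19, the site from 5799247 to 5799873 went from 1.99 to -2.73 with replicate 2, -0.75 with both FLAG libraries and -0.01 in XB028 alone. On chromosome 3, the site from 68889142 to 68889348 went from -0.48 to 0.15 by lines. The causes were not tested. No paired analysis was possible because each antibody had 1 library in the comparison. The motif alternatives were not run, for want of an mm9 sequence.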
